A study of Mus musculus with 24 samples.

Results

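The effect of a high fat diet on gene expression was described in the ventromedial hypothalamus (VMH) of control mice. The comparison used 6 of the 24 arrays of the series, chosen by their sample titles: 3 arrays of control VMH on high fat diet (HFD) and 3 of control VMH on standard diet (SD), each diet given for 16 weeks. The titles label the control arrays WT. It was made over 16211 genes with a single symbol and a feature at or above the median signal of the table. The other arrays of the series came from mice labelled Gfap-Bmal1 cKO, in which the clock gene Bmal1 was targeted with Gfap, a gene of astrocytes, and from brown adipose tissue. The 6 VMH arrays of cKO mice, 3 per diet, served as a second set for the same diet contrast and helped to estimate each gene's spread. Neither the labels nor the series text state the strain, sex, age, time of day or the alleles that the controls carried. Total RNA was taken from VMH dissected out of 100 µm frozen sections. Whether each array stands for its own mouse is not stated, so a p-value here refers to the variation among arrays of a group, and that variation may be technical.

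The VMH is a nucleus of the hypothalamus whose glutamatergic neurons, many of which express the transcription factor SF-1 and the peptide PACAP, regulate body weight, glucose and the thermogenic activity of brown fat. Its neurons respond to leptin, insulin, estrogen and glucose, and lie next to the arcuate nucleus, the seat of the melanocortin and AgRP neurons. High fat feeding is known to blunt the response of hypothalamic neurons to leptin and insulin and to activate hypothalamic glia.

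Values are deposited log2 signals, so a difference of 1 is a doubling. The 6 control arrays had medians between 5.50 and 5.57 and correlated pairwise at 0.993 to 0.996. The dissection contained VMH tissue on every array. Fezf1, a transcription factor of VMH neurons, lay between 14.56 and 15.43, and the SF-1 gene Nr5a1 between 7.56 and 8.47. Slc17a6, the vesicular glutamate transporter of the hypothalamus, lay between 15.36 and 15.86. Neighbouring regions were also present in amounts that varied from array to array. Pmch, the peptide of lateral hypothalamic neurons, was at 15.93, 15.92 and 12.15 on the SD arrays and at 16.54, 12.80 and 11.94 on the HFD arrays. Gh, a pituitary hormone, was between 4.80 and 5.47 on all 6 control arrays. On 1 cKO HFD array (array 2) it reached 13.74.

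No gene passed the threshold in the comparison of the diets in controls. Limma with Benjamini-Hochberg adjustment called 0 of 16211 genes (0.0%), and the lowest adjusted p was 0.213. At an unadjusted p under 0.05, 1034 genes were higher on HFD (6.38%) and 343 were lower (2.12%). All 3 HFD arrays lay above all 3 SD arrays for 1408 genes (8.69%) and below them for 613 genes (3.78%). The differences were small: the median over all genes was 0.02, the middle 50% lay between -0.06 and 0.10, and the median standard error was 0.09. A difference of more than 1 was seen for 7 genes. An exact permutation test of 3 arrays against 3 cannot give a two-sided p below 0.1, so the statements on single genes below rest on limma.

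The excess of higher over lower genes depended on the scaling of the arrays. After quantile normalization 444 genes were higher and 707 lower at an unadjusted p under 0.05, and the median of all genes moved from 0.02 to -0.03. Without SD array 1 the split was 784 to 719. This array had the narrowest spread of signals over genes (SD 2.60, against 2.63 to 2.65 on the others). In the deposited values the median difference was -0.02 among the dimmest 4053 genes and 0.05 among the brightest 4053. Under quantile normalization both were below 0, at -0.03 and -0.01. The 47 genes chosen below by their statistic or size among genes without overlap kept their direction after quantile normalization. Leaving out an array cannot turn the direction of a gene without overlap, so it tells nothing of theirs.

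**Figure D1:**
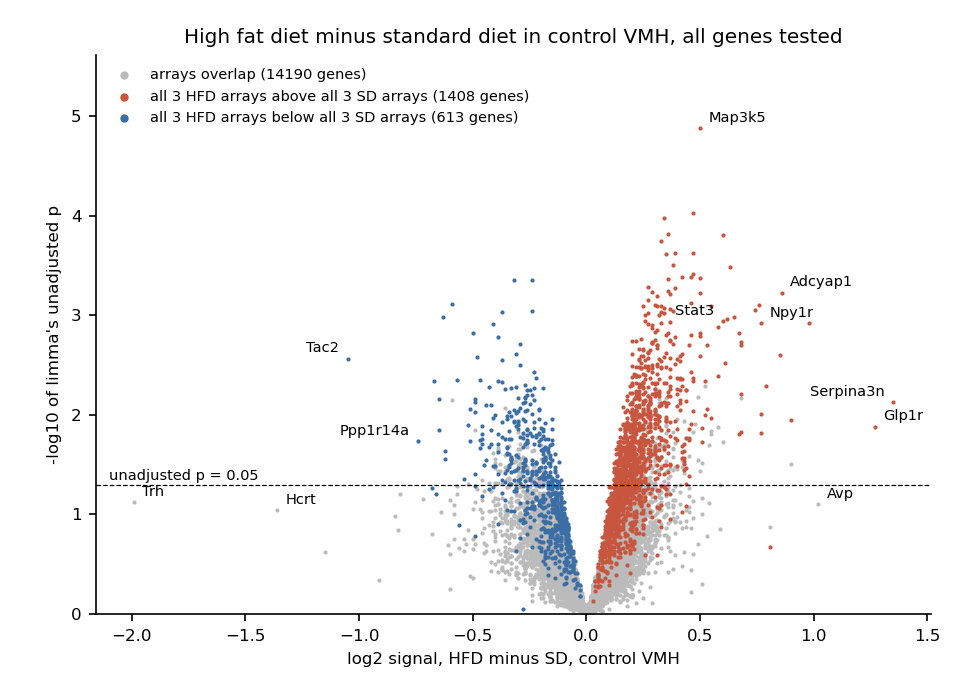
Difference in log2 signal (HFD minus SD, x axis) against -log10 of limma's unadjusted p (y axis) for each of 16211 genes in control VMH; colours mark genes whose 3 HFD arrays lay all above (1408) or all below (613) the 3 SD arrays. Genes at the top such as Map3k5 had even arrays and differences near 0.50, while Trh, Hcrt and Avp differed by more but had overlapping arrays and lay below the dashed line.

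The most reproducible difference was that of Map3k5, which encodes ASK1, a kinase that activates the JNK and p38 pathways under oxidative and endoplasmic reticulum stress. Its log2 signal was 9.66, 9.76 and 9.72 on the SD arrays and 10.19, 10.25 and 10.21 on the HFD arrays. The groups were separated by a gap several times wider than the spread within either. The difference was 0.50 ± 0.07 (SE, n = 3 per diet), a 1.41-fold higher signal, with a limma adjusted p of 0.213 in controls alone. The cKO arrays, which were not used for this value, gave 0.36 ± 0.07, again without overlap. Averaged over the genotypes, Map3k5 rose by 0.43 ± 0.05, with a limma adjusted p of 0.0166. It was 1 of 2 genes (0.0123%) that passed in that averaged comparison. The averaged call ended without SD array 3 or any HFD array (adjusted p 0.0616 to 0.0915) and with the replicate number as a block (limma adjusted p 0.0742), while the difference in controls stayed between 0.47 and 0.52 without any single array. Of 15 measured genes of the stress-activated kinases, 9 were higher and 6 lower with a median of 0.03. Besides Map3k5, Map3k7 (TAK1) at 0.16 and Mapk12 (p38 gamma) at -0.16 reached an unadjusted p under 0.05. Of all genes, 6.38% were higher and 2.12% lower at that p.

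The other gene that passed in the averaged comparison was Snord58b, a small nucleolar RNA that guides methylation of ribosomal RNA. In controls it was at 13.91, 14.01 and 13.92 on SD and at 14.14, 14.10 and 14.08 on HFD, a difference of 0.16 ± 0.07. The groups did not overlap but lay close together. The cKO difference was 0.87 ± 0.07, so the averaged rise of 0.52 (limma adjusted p = 0.0127) came mostly from arrays outside the control comparison. This averaged call too ended without SD array 3 or any HFD array (adjusted p 0.0514 to 0.0674) and with the replicate block (limma adjusted p 0.0648). The diet effects of the genotypes on this gene differed at an unadjusted p of 2.8e-05, which did not pass adjustment (limma adjusted p = 0.452). That was the lowest adjusted p of the test for a difference between genotypes, in which limma called 0 genes (0.0%) and 911 were at an unadjusted p under 0.05.

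Markers of VMH neurons were mostly higher on HFD. Of 22 measured, 17 were higher and 5 lower, with a median of 0.12 against 0.02 for all genes, and 4 were at an unadjusted p under 0.05, all higher. Of all genes, 6.38% were higher and 2.12% lower at that p. The median was 0.06 after quantile normalization and between 0.04 and 0.19 when each array was left out. In the cKO arrays 18 of the 22 were higher, with a median of 0.28. Limma's adjusted p was at or above 0.346 for every member in controls.

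Adcyap1, which encodes PACAP, a peptide of VMH neurons that lowers food intake and raises energy expenditure, had the largest difference of these markers. Its log2 signal was 10.45, 10.20 and 10.84 on SD and 11.08, 11.63 and 11.36 on HFD. The HFD arrays all lay above the SD arrays. The difference was 0.86 ± 0.18 (SE), 1.81-fold, with a 95% interval of 0.46 to 1.25 and a limma adjusted p of 0.346. The cKO difference was 0.47 ± 0.18, also without overlap. Gpr149, an orphan receptor, was at 9.44, 9.64 and 9.97 on SD and at 10.09, 10.64 and 10.36 on HFD, a difference of 0.68 ± 0.17. Slc17a6 was higher by 0.32 ± 0.10 and Gda, guanine deaminase, by 0.35 ± 0.11, both without overlap in controls. The 2 transcription factors that define the nucleus overlapped between the diets: Fezf1 was higher by 0.36 ± 0.19 and Nr5a1 by 0.30 ± 0.18. Bdnf (-0.01), Esr1 (-0.04), which encodes an estrogen receptor, and Lepr (0.08), the leptin receptor, overlapped between the diets as well.

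Among receptors for signals of energy balance, equal numbers were higher and lower (14 of 28 each, with a median of -0.003). At an unadjusted p under 0.05, 5 were higher and 2 lower, against 6.38% and 2.12% of all genes. Without overlap between the diets, 6 were higher and 2 lower, against 8.69% and 3.78% of all genes. Gpr83, an orphan-type receptor that has been tied to energy balance, was at 8.30, 8.10 and 8.05 on SD and at 8.54, 8.72 and 8.59 on HFD, a difference of 0.47 ± 0.08. Npy1r, the Y1 receptor of neuropeptide Y, was at 9.96, 9.65 and 9.54 on SD and at 10.35, 10.80 and 10.31 on HFD, a difference of 0.77 ± 0.18, or 1.70-fold. For both genes all HFD arrays were above all SD arrays, and the same held among the cKO arrays, where the differences were 0.25 and 0.46. Hcrtr2, an orexin receptor, was higher by 0.58 ± 0.16 in controls and by 0.28 ± 0.16 in cKO arrays, without overlap in either. Limma adjusted p was 0.346 for Gpr83 and Npy1r and 0.434 for Hcrtr2.

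Glp1r, the receptor of the satiety hormone GLP-1, had the largest difference of the receptors and the least even one. It was at 10.01, 9.53 and 9.32 on SD and at 10.05, 11.75 and 10.87 on HFD. HFD array 1 was barely above SD array 1, and HFD array 2 was the highest. The difference of 1.27 ± 0.43 (2.41-fold) lay between 0.84 and 1.69 when each array was left out, and was 0.76 ± 0.43 with overlap in the cKO arrays. The remaining receptors at an unadjusted p under 0.05 are named here after their values were seen. Calcrl, the CGRP and adrenomedullin receptor, was higher by 0.23 in controls and lower in cKO arrays (-0.27). Htr2c, a serotonin receptor that restrains feeding, was at 8.40, 8.88 and 8.83 on SD and at 8.37, 8.14 and 8.29 on HFD, a difference of -0.44 ± 0.18. Oprm1, the mu opioid receptor, differed by -0.28 ± 0.11. The receptors of melanocortin, Mc3r (0.16) and Mc4r (-0.04), overlapped between the diets.

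**Figure D2:**
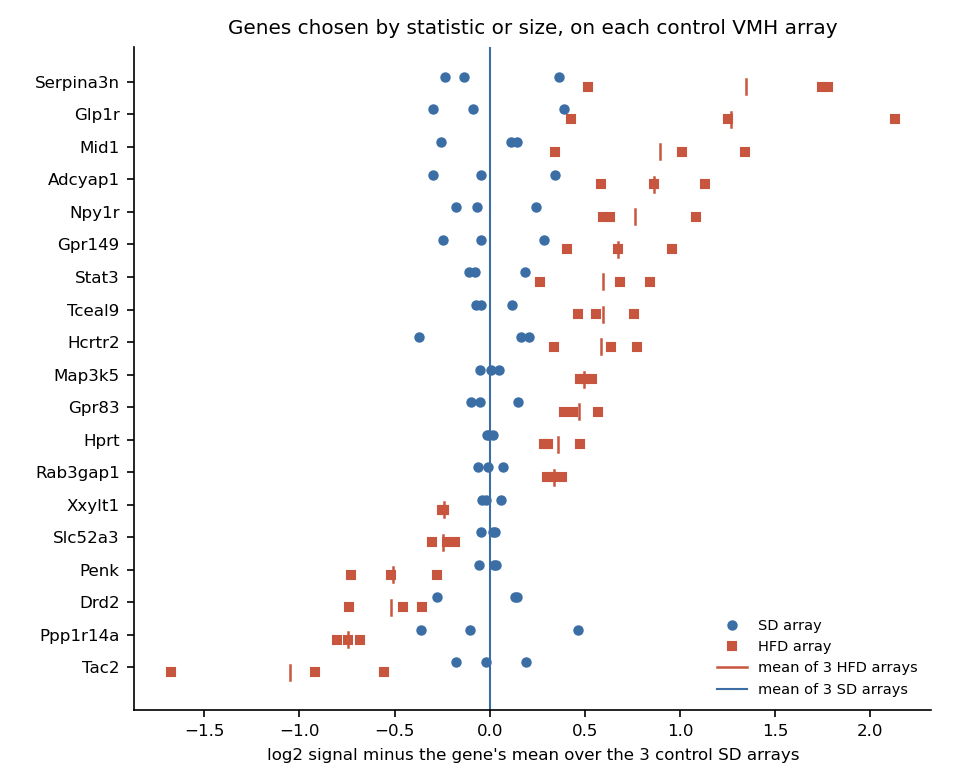
Log2 signal of 19 genes on each control VMH array, minus the gene's mean over the 3 SD arrays (x axis), with SD arrays as circles, HFD arrays as squares and the mean of the 3 HFD arrays as a tick. No gene's HFD arrays overlap its SD arrays, and the gap is wide and even for Map3k5, Hprt and Rab3gap1 but rests on uneven HFD arrays for Glp1r, Serpina3n and Tac2.

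In leptin and insulin signalling, 14 of 23 genes were higher and 9 lower (median 0.03, and -0.03 after quantile normalization), and 3 higher and 1 lower reached an unadjusted p under 0.05, against 6.38% and 2.12% of all genes. After quantile normalization 8 of the 23 were higher and 15 lower. Stat3, the transcription factor through which the leptin receptor acts on genes, was at 8.81, 8.84 and 9.10 on SD and at 9.18, 9.76 and 9.60 on HFD. Its lowest HFD array lay just above its highest SD array. The difference was 0.60 ± 0.14, 1.51-fold, with a limma adjusted p of 0.346, and it was 0.25 ± 0.14 in the cKO arrays. Pik3cb, a catalytic subunit of phosphoinositide 3-kinase, was higher by 0.17, and Ptpn2, a phosphatase that dampens STAT signalling, by 0.19. Foxo1, the transcription factor that insulin inhibits, was lower at -0.22 ± 0.09. Other steps of the pathway differed little: Jak2 by 0.10, Irs2 by -0.02, Ptpn1 by -0.05 and Akt2 by -0.06.

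Tac2 had the largest difference among the lower genes whose arrays did not overlap. It encodes neurokinin B, a peptide of arcuate neurons. Its log2 signal was 8.39, 8.55 and 8.76 on SD and 7.65, 6.89 and 8.01 on HFD, a difference of -1.05 ± 0.27, or 2.07-fold lower, with a limma adjusted p of 0.398. HFD array 2 was the lowest, and the difference was -0.74 at its smallest when an array was left out. The cKO arrays overlapped, with a difference of -0.33 ± 0.27. Penk, which encodes the enkephalins, was at 8.18, 8.19 and 8.10 on SD and at 7.88, 7.43 and 7.64 on HFD, a difference of -0.51 ± 0.18, against 0.03 ± 0.18 in cKO arrays. Drd2, a dopamine receptor, was lower at -0.52 ± 0.18, also without overlap.

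Peptide genes of the regions around the VMH held some of the largest differences, with arrays that overlapped. Trh, thyrotropin-releasing hormone, was at 10.16, 11.65 and 12.60 on SD and at 10.33, 8.40 and 9.71 on HFD, a difference of -1.99 with a standard error of 1.01. Hcrt, the orexin gene of the lateral hypothalamus, differed by -1.36 ± 0.73 and Avp, vasopressin, by 1.02 ± 0.52. The arcuate gene Pomc, source of the melanocortins, was at 7.37, 7.63 and 7.92 on SD and at 7.97, 8.97 and 8.42 on HFD. Its groups did not overlap in controls. Its spread over the 12 VMH arrays was wide, with cKO HFD array 2, on which Gh was high, at 10.39. The control difference of 0.81 had a standard error of 0.61, which was estimated over all 12 arrays. Npy was at 8.13, 7.54 and 7.57 on SD and at 7.25, 7.58 and 8.22 on HFD. In all, 7 of 14 measured arcuate markers were higher and 7 lower. The amounts of neighbouring tissue on the arrays varied as given above for Pmch, and their part in these differences was not tested.

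Markers of inhibitory neurons were lower on HFD, all 8 of 8 measured, with a median of -0.32 against 0.02 for all genes. Gad2, an enzyme of GABA synthesis, was at 12.17, 13.12 and 12.29 on SD and at 12.36, 11.15 and 11.92 on HFD, a difference of -0.72 ± 0.36. Gad1 differed by -0.60 ± 0.30 and Slc32a1, the vesicular GABA transporter, by -0.58 ± 0.32. Each of these overlapped between the diets. Only the transcription factor gene Dlx2 (-0.35 ± 0.13) was lower at an unadjusted p under 0.05, as were 2.12% of all genes. HFD array 2 was the lowest for all 4 genes, and without it the median was -0.17. Among the cKO arrays 3 of the 8 markers were higher and 5 lower, with a median of -0.08. Gad1 (-0.57), Gad2 (-0.64) and Slc32a1 (-0.58) were lower there by about as much as in controls. The remaining markers lay between -0.11 and 0.26 in the cKO arrays. HFD array 2 of the controls was also the highest of the 6 for the mean of the VMH neuron markers (9.16, against 8.77 to 8.96 on the others). In bulk tissue, fewer cells of a type and less RNA per cell cannot be told apart.

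Oligodendrocyte and myelin genes were lower on HFD in all 19 of 19 measured members, with a median of -0.35 against 0.02 for all genes. The mean log2 signal of the list was 9.67, 10.29 and 11.05 on the SD arrays and 9.93, 9.86 and 10.12 on the HFD arrays. The SD arrays alone thus spanned more than the diets did, with SD array 1 below every HFD array. Without SD array 3 the median was -0.02, and without SD array 1 it was -0.68. Mbp, myelin basic protein, was at 10.56, 11.33 and 11.74 on SD and at 10.84, 10.65 and 11.08 on HFD. Only Myrf, the master transcription factor of myelin genes, was at an unadjusted p under 0.05 (-0.34 ± 0.15, limma adjusted p = 0.581). At that p 2.12% of all genes were lower. Among cKO arrays the median was -0.18.

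**Figure D3:**
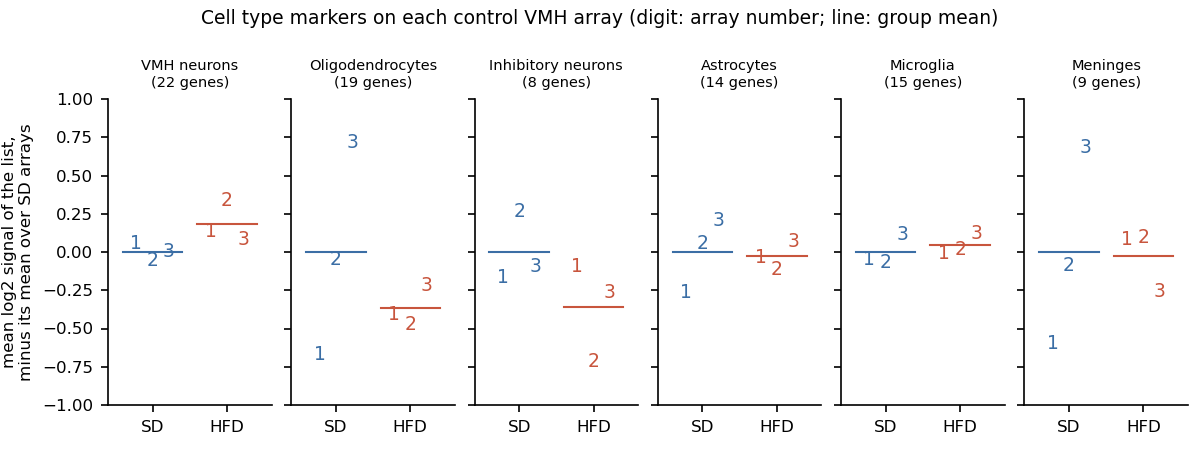
Mean log2 signal of 6 marker lists on each control VMH array, minus the list's mean over the SD arrays (y axis), by diet (x axis); each digit is an array's number and each line a group mean. Oligodendrocyte and meningeal markers were highest on SD array 3 and lowest on SD array 1, and inhibitory neuron markers were lowest on HFD array 2.

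Microglial, astrocyte and inflammatory genes, which high fat feeding is known to act on, were divided between higher and lower. Of 15 microglial markers 7 were higher and 8 lower (median -0.04), and limma called none (0 at an unadjusted p under 0.05). The nearest was Ctss, the lysosomal protease cathepsin S, at 10.62, 10.96 and 11.18 on SD and at 11.19, 11.15 and 11.32 on HFD, a difference of 0.30 ± 0.14. Aif1, which encodes the microglial protein Iba1, differed by -0.08 ± 0.08. Of 24 genes listed for inflammation and NF-kB signalling, 10 were measured, and the others were not among the genes tested. Of these 10, 5 were higher and 5 lower, and 0 were at an unadjusted p under 0.05. Of all genes, 6.38% were higher and 2.12% lower at that p. Of 14 astrocyte markers 6 were higher and 8 lower (median -0.03). Gfap was at 10.34, 11.54 and 12.46 on SD and at 10.90, 11.43 and 11.65 on HFD, so its SD arrays spanned all HFD arrays. Interferon response genes were higher in 7 of 9 (median 0.15, against 0.02 for all genes). Irf9 (0.24 ± 0.08) and Ifit2 (0.24 ± 0.11) were higher at an unadjusted p under 0.05, as were 6.38% of all genes. In the cKO arrays 2 of these 9 were higher, and the median was -0.13.

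Serpina3n, a secreted protease inhibitor of reactive astrocytes, had the largest difference of the genes whose arrays did not overlap. Its log2 signal was 10.35, 9.75 and 9.85 on SD and 10.50, 11.76 and 11.73 on HFD. HFD arrays 2 and 3 stood well above every SD array, while HFD array 1 was close to SD array 1. The difference was 1.35 ± 0.41 (SE), 2.54-fold, with a limma adjusted p of 0.452, and 0.69 ± 0.41 with overlap in the cKO arrays. The gene has close copies, between which a feature may not distinguish. Of 7 measured reactive astrocyte genes 5 were higher, and apart from Serpina3n the differences lay between -0.12 and 0.11.

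The promoters of genes that differed were searched for 4 motifs on both strands, from 250 bases before to 50 bases after the RefSeq start site. A promoter was found for 9870 of the 16211 genes, and for 187 of the 275 higher and 25 of the 57 lower genes without overlap at an unadjusted p under 0.01. The cyclic AMP response element TGACGTCA was in 2.67% of the higher and 3.47% of all promoters. The E-box CACGTG, which the clock factors bind, was in 11.2% and 11.4%. A 10-base NF-kB motif was in 6 of the 187 higher promoters (3.21%) and in 1.80% of all. A 13-base glucocorticoid motif was in 1 of the 187 (0.535%) and in 0.385% of all. Among the lower genes 1 promoter held the cyclic AMP response element and 1 the E-box. These matches are a description of letters. Of the genes chosen by statistic or size for which a promoter was found, 2 had any of these motifs. Genes named only for their repeat in cKO arrays were left out of this count. The 250 bases before the start sites of the 2 genes are shown. Capitals mark the NF-kB motif and, in Serpina3n, also the glucocorticoid motif that follows it. The sequences are from RefSeq (GRCm38.p6), on the plus strand at chr12:104406458-104406707 for Serpina3n and chr8:88696778-88697027 for Cyld.
Serpina3n: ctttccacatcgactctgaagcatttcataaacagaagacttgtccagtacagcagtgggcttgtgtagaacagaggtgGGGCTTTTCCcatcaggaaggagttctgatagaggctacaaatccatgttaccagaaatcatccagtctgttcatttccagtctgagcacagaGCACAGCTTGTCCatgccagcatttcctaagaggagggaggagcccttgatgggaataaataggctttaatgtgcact
Cyld: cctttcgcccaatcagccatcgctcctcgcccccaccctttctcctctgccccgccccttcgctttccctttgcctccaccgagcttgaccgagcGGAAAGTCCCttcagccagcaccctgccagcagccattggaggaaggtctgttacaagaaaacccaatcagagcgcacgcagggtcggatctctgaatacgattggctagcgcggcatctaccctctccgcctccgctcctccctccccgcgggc

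Cyld encodes a deubiquitinase that restrains NF-kB signalling. It was at 10.98, 11.14 and 11.04 on SD and at 11.48, 11.36 and 11.41 on HFD. All HFD arrays were above all SD arrays, for a difference of 0.36 ± 0.07. Its cKO difference was 0.09. The 15 highest statistics held several other genes of the cytoplasm and nucleus with the same even gap. Rab3gap1, a regulator of Rab GTPases and of autophagy, was at 9.97, 10.02 and 10.10 on SD and at 10.41, 10.36 and 10.33 on HFD (0.34 ± 0.06). Hprt, a purine salvage enzyme often used as a reference gene, was at 15.03, 15.05 and 15.02 on SD and at 15.51, 15.34 and 15.32 on HFD (0.36 ± 0.06). Srsf5, a splicing factor, was higher by 0.50 ± 0.10 in controls; in cKO arrays it was at 13.36, 13.06 and 13.36 on SD and at 13.37, 13.14 and 13.26 on HFD. Tceal9 (0.60), Mageh1 (0.47), Pnmal2 (0.38) and the cyclophilin gene Ppid (0.35) were without overlap in both genotypes. Limma adjusted p was 0.346 for each of these.

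Other groups held a few genes each. Of 17 genes of the cilium and of ciliopathies with obesity, 14 were higher (median 0.09), and 4 were higher at an unadjusted p under 0.05, as were 6.38% of all genes. These were Alms1, the gene of Alstrom syndrome (0.25 ± 0.08), Bbs5 of the Bardet-Biedl complex (0.18), Cep290 (0.14) and the motor subunit Kif3a (0.20). After quantile normalization 9 of the 17 were higher and the median was 0.01. Autophagy genes were divided, 16 of 27 higher with a median of 0.01, and 9 higher and 18 lower after quantile normalization. At an unadjusted p under 0.05 there were 4, all higher, against 6.38% higher and 2.12% lower of all genes: Rab3gap1, the conjugation enzyme gene Atg3 (0.26 ± 0.07), Becn1 (0.14) and Atg12 (0.17). In the unfolded protein response 15 of 19 genes were higher (median 0.07), none at an unadjusted p under 0.05. Glutamate and GABA receptor subunits were divided, 15 of 28 higher with a median of 0.05, and 11 higher and 17 lower after quantile normalization. At an unadjusted p under 0.05, 3 were higher and 1 lower, against 6.38% and 2.12% of all genes. These were Gabrb1 (0.35 ± 0.09), Grm5 (0.37 ± 0.11) and Gabra2 (0.35 ± 0.14), which were higher, and Grin2d (-0.21 ± 0.07), which was lower. For Gabra2 the gene's other feature gave 0.10. Of 43 subunits of the respiratory chain 14 were higher and 29 lower in controls (median -0.03), and 29 were higher and 14 lower in the cKO arrays (median 0.04). Cycs, cytochrome c, was the highest at 0.55 ± 0.19, with overlapping arrays and 0.28 on the gene's other feature, and Atp5b, a subunit of ATP synthase, was at -0.25 ± 0.09.

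Matrix and growth factor genes included several that were lower. Of 20 matrix genes 14 were lower (median -0.09, against 0.02 for all genes). Without SD array 3 the median was -0.015, and 8 of the 20 were higher. Sparc, a matrix protein, was at 16.57, 16.81 and 16.76 on SD and at 16.42, 16.48 and 16.47 on HFD, a difference of -0.25 ± 0.08. The membrane protease gene Mmp14 was at 7.20, 7.31 and 7.37 on SD and at 6.89, 7.03 and 6.96 on HFD, a difference of -0.33 ± 0.13. Sparc and Mmp14 were the 2 matrix genes that were lower without overlap, and 1 was higher without overlap. Of all genes, 3.78% were lower and 8.69% higher without overlap. Mmp14 was lower without overlap in the cKO arrays too (-0.38). Igf1, insulin-like growth factor 1, was at 5.86, 5.73 and 5.80 on SD and at 5.54, 5.39 and 5.48 on HFD (-0.33 ± 0.11). It was dim: HFD arrays 2 and 3 lay below 5.51, the limit that a feature's mean signal had to reach. Cntfr, the receptor of ciliary neurotrophic factor, was lower at -0.23 ± 0.07. Clock genes overlapped between the diets in all 19 measured, with 9 higher and 10 lower. Arntl, which is Bmal1, was at 8.58, 8.80 and 8.49 on SD and at 9.22, 8.83 and 8.80 on HFD, a difference of 0.33 ± 0.17. Immediate early genes, many of which report recent neuronal activity, were higher in 9 of 17 and lower in 8. Of the 17 only Homer1 (0.25 ± 0.08) was without overlap, while 8.69% of all genes were higher without overlap. Fos differed by -0.13 ± 0.19.

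**Figure D4:**
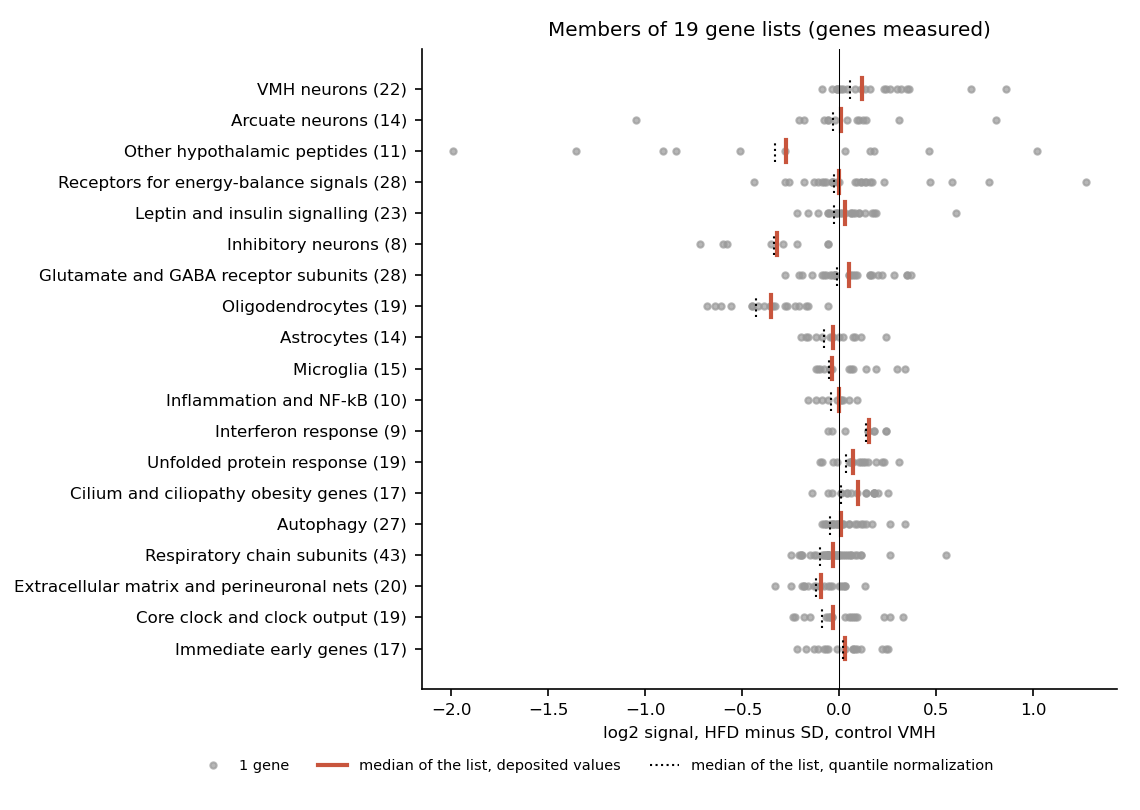
Differences in log2 signal (HFD minus SD, x axis) of the measured members of 19 gene lists in control VMH; each grey point is a gene, the thick bar the list's median on the deposited values and the dotted bar its median after quantile normalization. Inhibitory neuron and oligodendrocyte markers lie wholly below 0, the medians of most other lists lie within 0.15 of 0, and the hypothalamic peptides spread most widely.

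The cKO arrays gave a second measurement of the diet effect on arrays not used for the control differences, although both differences use the same estimate of each gene's spread. All 3 cKO HFD arrays lay above all 3 cKO SD arrays for 11.9% of genes and below them for 5.67%. Of the 275 genes that were higher in controls without overlap at an unadjusted p under 0.01, 226 (82.2%) had the same direction in the cKO arrays, where 59.6% of all genes were higher. Of these 275, 86 (31.3%) were higher without overlap, and 9 (3.27%) were lower without overlap. Their median difference was 0.30 in controls, where they were chosen, and 0.09 in the cKO arrays. Of the 57 lower genes, 39 (68.4%) had the same direction, where 40.3% of all genes were lower, and 4 (7.02%) were lower without overlap, close to the 5.67% of all genes. Without cKO HFD array 2, on which Gh was high, 215 of the 275 (78.2%) and 38 of the 57 (66.7%) kept the direction, against 57.7% and 42.2% of all genes. The control and cKO differences cannot be read as a difference in the effect of the diet, since limma called 0 genes in the test of that difference.

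Besides Map3k5, genes that were closest in both genotypes included Ociad2, a protein of endosomes and mitochondria, at 10.37, 10.54 and 10.59 on SD and at 10.78, 10.97 and 10.86 on HFD. Its difference was 0.37 ± 0.08 in controls and 0.43 in cKO arrays. Pde2a, a phosphodiesterase of cyclic nucleotides, was higher by 0.20 and 0.22, and Slc39a10, a zinc transporter, by 0.23 and 0.41. Fam81a (0.42 and 0.35), Cfap300 (0.36 and 0.30), Ssx2ip (0.33 and 0.27), Rpe (0.27 and 0.27) and Pja1 (0.20 and 0.21) were alike in having no overlap in either genotype. Since the same values chose these genes, this is a description. Limma's adjusted p over the averaged comparison was 0.0563 for Ociad2 and Slc39a10.

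**Figure D5:**
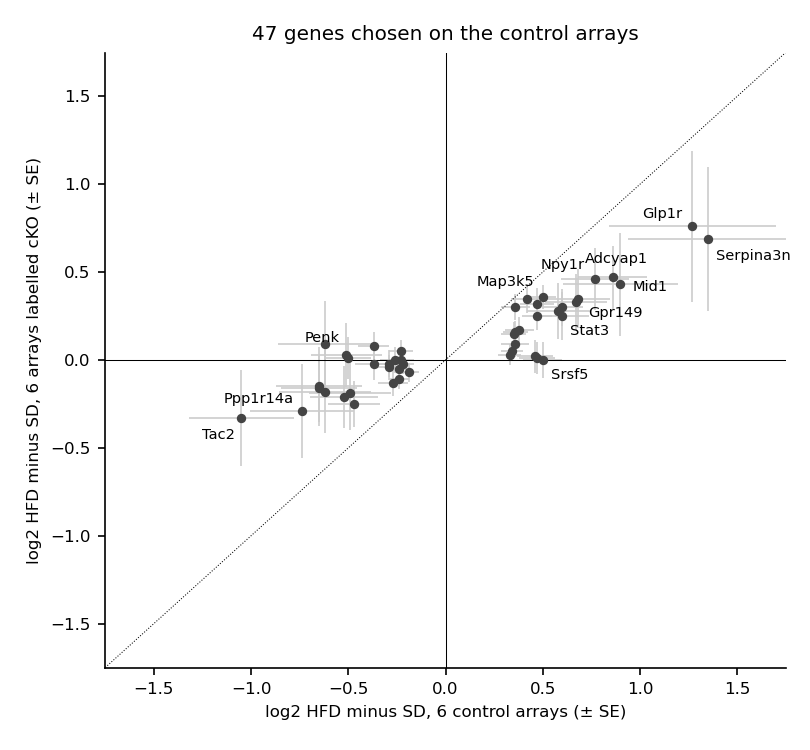
Difference in log2 signal between the diets in the 6 arrays labelled cKO (y axis) against that in the 6 control arrays (x axis) for 47 genes chosen by their statistic or size in the control arrays; bars are standard errors and the dotted line marks equal differences. The cKO differences of Adcyap1, Npy1r, Glp1r and Serpina3n are positive but smaller than those in controls, where the genes were chosen, and that of Srsf5 is at 0.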

How the data were processed

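The comparison used 12 VMH arrays, 3 for each genotype and diet, from Affymetrix arrays hybridised with total RNA. The authors deposited log2 signals, 1 value per feature and array, between 2.12 and 19.93. Per the submitters' processing notes, the tools were PLIER 2.0 and Affymetrix Expression Console 1.1.1, whose roles are not recorded. How arrays were normalized, and the genome build: not given in the sources used here.

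Of 72688 features, 6732 were controls, 30604 had 1 gene symbol, 2146 several and 33206 none. A RefSeq gene table (GRCm38.p6) updated the symbol of 833 features. Features with 1 symbol were kept when their mean over the 12 arrays reached the table median (5.51), and the brightest stood for a gene. No further normalization was applied. The fit, in limma 3.58.1 under R 4.3.3, had 4 group means and equal weights, and p-values were two-sided and adjusted over 16211 genes at a threshold of 0.05. The procedure was tested on simulated data. The number of arrays limits the precision.

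The members and 46 gene lists were chosen with earlier results of these data known. Named genes were the 15 highest and 15 lowest statistics and the 10 largest differences each way among genes without overlap, up to 4 members of each list by smallest p, a set of well known genes, and up to 10 genes repeated in cKO arrays. The ranked choices omitted predicted genes and small RNAs, except Snord58b, which passed in the averaged comparison. Counts of genes in controls, in the averaged comparison and in the test between genotypes were recomputed under alternatives, where these could be fitted. So were the control differences of named genes and the control list medians. The alternatives were quantile normalization, a pseudocount of 16, no filter, the upper quartile as filter, and features of a gene averaged. Further ones were a robust trended prior, the control arrays alone, array weights, the replicate number as a block, and leaving out each control array. The cKO differences, the promoter shares and the fit of features without a single gene symbol were not recomputed under these alternatives. Medians by signal level under quantile normalization, and the cKO directions without cKO HFD array 2, were added after seeing the data.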

Additional observations from a re-analysis of the deposited data

How the results depend on the processing

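Limma called 0 genes in controls under all 15 alternatives, with the lowest adjusted p between 0.118 and 0.706, and 0 genes for the difference between genotypes under all that could be fitted. Quantile normalization gave 444 genes higher and 707 lower at an unadjusted p under 0.05, and 710 higher and 1362 lower without overlap. Without a filter 2155 genes were at an unadjusted p under 0.05, 1056 of them lower, and 3552 did not overlap, 1871 of them lower; more genes were tested. With the stricter filter 117 were lower at an unadjusted p under 0.05, and 1271 did not overlap, 207 of them lower. Array weights gave 623 lower. In the averaged comparison, limma called 5 genes with the pseudocount, 9 with the stricter filter and 27 with array weights. The cause of these shifts was not tested, apart from the number of genes tested.

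Leaving out each control array gave 923 to 1577 genes at an unadjusted p under 0.05, 668 to 1178 higher and 255 to 719 lower, and 0 to 5 averaged calls. With fewer arrays more genes do not overlap by construction: 3044 to 4119, 1930 to 2616 higher and 1114 to 2051 lower. Of 3438 values of the 234 named genes under alternatives, 3377 kept their direction and 0 passed the threshold; for genes without overlap, leaving out an array cannot turn the direction. With the replicate block, 965 genes were higher and 357 lower at an unadjusted p under 0.05, and the averaged comparison had 0 calls. Same-numbered SD and HFD arrays deviated with correlations of -0.104, -0.351 and 0.03, so the numbers were not taken to pair the arrays.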

Other observations

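Features with no gene symbol or with several were fitted separately. Of 15292 such features above the same signal limit, limma called 0 in control VMH (lowest adjusted p 0.325), and 1279 were at an unadjusted p under 0.05.

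The ranked lists held members outside the groups described so far. Mid1, a ubiquitin ligase of microtubules, was at 11.59, 11.22 and 11.62 on SD and at 12.82, 12.49 and 11.82 on HFD, a difference of 0.90 ± 0.29, and the gene's other feature gave 0.49. Ppp1r14a, a phosphatase inhibitor, was at 8.19, 8.45 and 9.02 on SD and at 7.75, 7.81 and 7.87 on HFD (-0.74 ± 0.27). The SD arrays of Ppp1r14a followed the order of the oligodendrocyte markers, whose part in this difference was not tested. Vamp1, a synaptic vesicle protein, was lower at -0.49 ± 0.21, and the stress proteins divided, with Hsph1 at 0.36 ± 0.13, Hspd1 at 0.19 ± 0.08 and Cryab at -0.45 ± 0.18. Clic6, a gene of the choroid plexus, was at 8.62, 8.82 and 8.75 on SD and at 9.11, 9.19 and 9.02 on HFD, while Kcnj13, another gene of that tissue, overlapped between the diets.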
